A study of Homo sapiens with 4 samples.

Results

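The ID proteins and the feedback genes of bone morphogenetic protein (BMP) signalling were followed over 4 arrays of human lung adenocarcinoma cells. The set held 10 genes, which were ID1, ID2, ID3, ID4, SMAD6, SMAD7, BMP4, BMP2, BMPR2 and BAMBI, out of 19775 genes with a probe set on the array. All probe sets whose platform annotation gives a single gene symbol, and that symbol a listed gene, were taken, which made 24 probe sets. A probe set is a group of short oligonucleotides that reads a transcript by its brightness. A further probe set that names ID2 together with ID2B was left out.

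The cells were CL1-0 carrying a control vector, CL1-0 labelled as carrying an AK4 vector, CL1-5 carrying a non-silencing shRNA and CL1-5 carrying an shRNA directed against AK4. CL1-0 and CL1-5 are human lung adenocarcinoma lines, and CL1-5 is known as the more invasive subline. AK4 is a mitochondrial adenylate kinase. All cells were stably transduced and selected with puromycin, so the controls carried a vector and the drug selection too, and whether a culture came from a single clone is not given in the sources used here. Each of the 4 groups was 1 array. The values below therefore have no replicate error and no test, and a difference is described by a 2-fold rule only.

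BMP ligands such as BMP2 and BMP4 bind type I and type II receptors, BMPR2 among the latter, which phosphorylate SMAD1, SMAD5 and SMAD9. These SMADs enter the nucleus with SMAD4 and induce the ID genes, whose proteins lack a DNA-binding region and hold the E proteins TCF3, TCF4 and TCF12 away from DNA. SMAD6, SMAD7 and the pseudoreceptor BAMBI are induced by the same ligand family and damp its signal. ID proteins are known to hold back differentiation, and in lung tumours ID1 has been studied for its part in growth and invasion.

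The 250 bases before the RefSeq start were read from GRCh38.p14, and those of the 4 ID genes and SMAD6 are printed below. They are shown because the 4 ID genes are paralogs that differed between the same arrays, and because SMAD6 is a direct SMAD target. Capitals mark matches to 4 motifs, searched on both strands: the palindromic SMAD box GTCTAGAC, the single SMAD box CAGAC, the GC-rich SMAD site GGCGCC and the TATA box TATAAA. The palindrome contains no CAGAC, so these 2 did not overlap in the search.
ID1, chr20:31605039-31605288, plus strand: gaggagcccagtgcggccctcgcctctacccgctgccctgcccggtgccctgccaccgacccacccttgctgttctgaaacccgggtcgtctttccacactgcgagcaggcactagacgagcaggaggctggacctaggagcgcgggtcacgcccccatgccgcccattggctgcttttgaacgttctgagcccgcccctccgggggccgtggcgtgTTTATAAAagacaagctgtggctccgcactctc
ID2, chr2:8681806-8682055, plus strand: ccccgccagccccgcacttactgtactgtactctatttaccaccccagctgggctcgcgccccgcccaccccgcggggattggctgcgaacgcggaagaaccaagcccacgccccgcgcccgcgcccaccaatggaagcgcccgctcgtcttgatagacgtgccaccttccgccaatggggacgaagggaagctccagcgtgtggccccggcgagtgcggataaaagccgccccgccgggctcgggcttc
ID3, chr1:23559502-23559751, minus strand: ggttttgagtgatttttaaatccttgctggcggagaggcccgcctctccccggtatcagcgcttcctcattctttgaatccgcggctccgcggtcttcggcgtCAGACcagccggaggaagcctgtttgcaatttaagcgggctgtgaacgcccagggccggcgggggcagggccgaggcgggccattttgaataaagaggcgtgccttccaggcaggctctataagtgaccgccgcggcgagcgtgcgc
ID4, chr6:19837120-19837369, plus strand: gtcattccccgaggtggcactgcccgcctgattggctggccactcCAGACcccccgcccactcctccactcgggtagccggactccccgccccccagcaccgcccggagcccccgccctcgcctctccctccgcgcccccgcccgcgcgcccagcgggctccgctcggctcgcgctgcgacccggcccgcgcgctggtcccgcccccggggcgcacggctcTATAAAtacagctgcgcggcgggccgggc
SMAD6, chr15:66701986-66702235, plus strand: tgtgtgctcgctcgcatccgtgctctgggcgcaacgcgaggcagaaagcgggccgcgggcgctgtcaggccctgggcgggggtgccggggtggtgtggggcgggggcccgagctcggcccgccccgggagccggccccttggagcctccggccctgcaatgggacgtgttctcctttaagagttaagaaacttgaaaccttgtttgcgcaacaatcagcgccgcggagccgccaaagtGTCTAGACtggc

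The SMAD6 window held the palindromic SMAD box, with its first base 12 bases upstream of the start. That motif was present in 64 of 35116 RefSeq windows of the same length, or 0.182%. None of the ID windows held it or the GC-rich site, which 16.4% of all windows hold. The ID3 and ID4 windows each held 1 single SMAD box, a motif of 38.0% of all windows, and those of ID1 and ID2 held none. Bases farther upstream were not searched. TATA boxes lay in the ID1 and ID4 windows, in the former as 2 overlapping matches on opposite strands, against 10.7% of all windows. The BAMBI window at chr10:28677271-28677520, not printed, held 3 GC-rich sites and 2 single SMAD boxes. RefSeq windows were found for 9 of the 10 genes, 13 windows in all, with a GC content from 48.0% to 81.2% against a median of 58.0% over all windows. A match is a description of letters and not of binding, and no array value bears on these windows.

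Signals are given after each array was scaled to a common trimmed mean, and a signal under the floor of 6.93, the 40th percentile of all scaled values, was set to the floor before ratios were taken. Of the 24 probe sets, 18 lay above the floor on at least 1 array and 10 on all 4. BMP2 and SMAD7 lay below it on every array. The deposited medians ran from 6.06 to 15.5, and 56.6% to 63.4% of probe sets were above the floor after scaling. AK4 checks the labels: its brightest probe set read 115 and 111 in CL1-0 with control and AK4 vector, and 1056 and 442 in CL1-5 with non-silencing and AK4 shRNA. The log2 ratios of the 4 AK4 probe sets in CL1-0 ran from -0.25 to -0.05. The library labelled AK4 vector thus did not show more AK4 signal, and where its probes lie against the insert is not given in the sources used here, so directions from that array rest on its label.

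The labels call the cells type II alveolar. Of 9 markers of that cell type with a probe set, 6 to 8 lay above the floor per array. Their summed signal was 413 and 359 in CL1-0 and 156 and 150 in CL1-5. Much of the lower sum came from LAMP3, at 210 and 160 in CL1-0 and 5.08 and 4.66 in CL1-5. Between the control arrays ABCA3 fell from 78.2 to 39.7, SFTPB from 38.8 to 22.4 and NKX2-1 from 23.9 to 13.7. SFTPC and SFTPD were slightly lower in CL1-5. NAPSA rose from 9.50 to 19.6 and PGC from 11.8 to 18.4. The sodium-phosphate transporter SLC34A2 was below the floor on all 4 arrays. Epithelial markers summed to 36.9 and 43.6 in CL1-0 and to 1997 and 1758 in CL1-5, the latter mostly from the keratins KRT8 and KRT18. The brightest probe sets of EPCAM and CDH1, which mark epithelium, were below the floor except in CL1-0 with AK4 vector, where they read 9.46 and 9.81, and a second CDH1 probe set read 7.33 in CL1-5 with non-silencing shRNA. Endothelial markers summed to 33.8 and 31.6 in CL1-0 and to 83.4 and 92.4 in CL1-5. Fibroblast markers summed to 88.0 and 87.5 and to 125 and 103, and leukocyte markers to 23.0 and 22.5 and to 41.9 and 33.0. CDH5, KDR, COL3A1, LUM and PTPRC were below the floor throughout. From CL1-0 control to CL1-5 non-silencing shRNA, the brightest probe sets rose from 7.12 to 45.1 for PECAM1 and from 47.4 to 78.3 for COL1A1. ITGAM rose from 6.72, under the floor, to 23.4, and DCN fell from 20.8 to 16.4. The part of these differences in the results below was not tested.

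Between the lines the ID genes parted. ID1 was brighter in CL1-5, whereas ID2, ID3 and ID4 were dimmer there, ID2 and ID4 close to or under the floor. This comparison set the 2 control arrays side by side to describe the sublines before AK4 is considered. In these bulk cultures a lower signal can come from fewer cells with a transcript or from less of it per cell, which cannot be told apart.

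**Figure D1:**
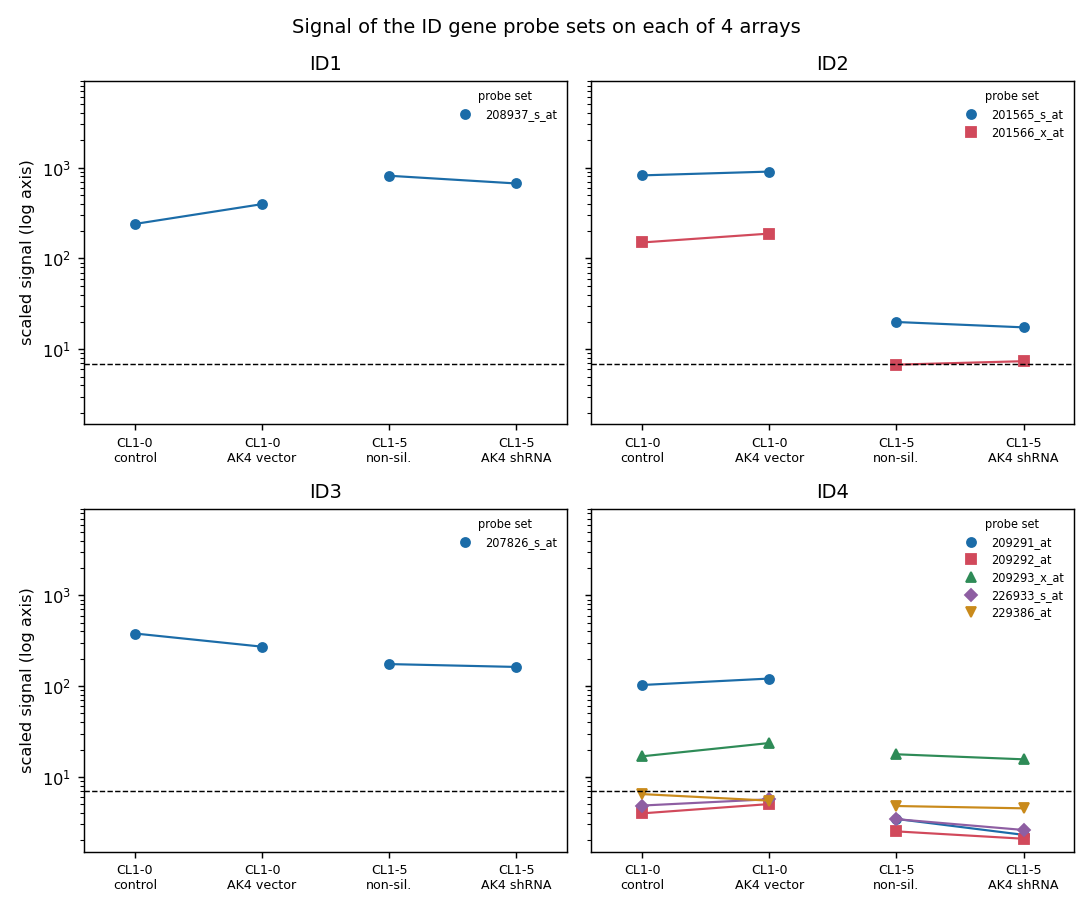
Scaled signal (vertical log axis) of every ID1, ID2, ID3 and ID4 probe set on each of the 4 arrays, with the dashed line at the floor of 6.93 and a line joining the arrays of a cell line. ID1 sits highest on the CL1-5 arrays at 814 and 670, whereas ID2 goes from 822 and 905 in CL1-0 to 19.95 and 17.4 in CL1-5.

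ID1 was read by a single probe set, 208937_s_at. Its signal was 240 in CL1-0 with control vector, 397 with AK4 vector, 814 in CL1-5 with the non-silencing hairpin and 670 with that against AK4. Both CL1-5 arrays lay above both CL1-0 arrays, with a gap of 1.69-fold between the nearest. Between the control arrays ID1 was 3.39-fold higher in CL1-5, a log2 ratio of 1.76.

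ID2, which holds back differentiation in many epithelia, gave the widest contrast of the set. Probe set 201565_s_at read 822 and 905 in CL1-0, with control and AK4 vector, and 19.95 and 17.4 in CL1-5, with non-silencing and AK4 shRNA. The lines did not overlap, and between the control arrays ID2 was 41.2-fold lower in CL1-5, a log2 ratio of -5.37. The second ID2 probe set, 201566_x_at, had the same order at 150, 188, 6.76 and 7.38, and was at least 21.6-fold lower against the floor.

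ID3 is expressed with ID1 in many tissues and is often induced beside it. Here its probe set 207826_s_at read 380, 272, 175 and 163 in the order used above. Both CL1-5 arrays lay below both CL1-0 arrays, by 1.55-fold at the nearest, and the log2 ratio between the control arrays was -1.12. ID3 was thus dimmer in the line in which ID1 was brighter. Its ratio was -0.25 without scaling and -0.99 after loess, both short of 2-fold. Without scaling, both CL1-5 signals of ID3 lay between those of the CL1-0 arrays.

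ID4, known from the nervous system and the mammary gland, depended on the probe set. Probe set 209291_at read 103 and 121 in CL1-0 and lay under the floor in CL1-5, at 3.45 and 2.30. It was at least 14.9-fold lower in CL1-5, a bound set by the floor. Probe set 209293_x_at did not follow, with 16.9, 23.6, 17.8 and 15.6 and a log2 ratio of 0.07. The other 3 ID4 probe sets were below the floor on every array. The mean over all 5, of which 3 sit at the floor, gave a log2 ratio of -0.76.

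The lines thus ordered the ID genes differently by their own range. ID1 had its 2 highest signals in CL1-5, and ID2, ID3 and the 209291_at reading of ID4 had theirs in CL1-0. For ID3 this order did not hold without scaling. No ID signal is set against another here, since probe sets differ in brightness for reasons other than transcript amount. The log2 ratio of ID1 stayed between 1.27 and 2.63 under 8 alternative settings, those of ID2 between -5.85 and -4.49, and neither crossed the 2-fold line. ID1, ID2 and ID3 were read only by probe sets ending in _s_at or _x_at, which may also catch related transcripts, so the setting without such probe sets gave them no value.

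Of the 10 genes, ID1 and SMAD6 were at least 2-fold higher in CL1-5 and ID2, ID3, ID4 and BAMBI at least 2-fold lower, with BMP4 and BMPR2 inside 2-fold and BMP2 and SMAD7 not measurable. Of the 15970 genes that could be read on these arrays, 17.1% passed 2-fold upward and 14.2% downward, so calls are common between these lines. The median log2 ratio was -0.73 over the 8 measured members and 0.13 over all measured genes. Over the settings the member median ran from -1.33 to 0.01. By a stricter description, in which both CL1-5 arrays lie at least 2-fold beyond both CL1-0 arrays, SMAD6 was higher and ID2 and ID4 were lower, against 10.7% higher and 9.6% lower of all 16261 genes. The 2 arrays of a line carry different vectors and are not replicates.

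Technical values moved with the lines too. The 3' to 5' signal ratio of beta-actin, which is larger where RNA is degraded, was 6.04 and 6.54 in CL1-0 and 1.34 and 1.61 in CL1-5. That of GAPDH ran from 1.04 to 1.54 over the 4 arrays. The deposited values were identical for 4502 of 54675 probe sets between the CL1-0 arrays and for 3287 between the CL1-5 arrays, but for 0 between any CL1-0 and CL1-5 array. Whether the lines were normalised together is not given in the sources used here. The part of these differences in the comparison of the lines was not tested. The scaling decides the balance of calls there: among called genes 54.6% were higher in CL1-5, against 90.4% without scaling, 26.8% with a common median, 42.8% after quantile normalisation and 43.6% after loess. The median log2 ratio of all genes was 0.83 without scaling and -0.30 with a common median, a span against which the smaller ratios of the members should be read.

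Ligands of the set were dim. BMP4, the only measurable ligand of the set, read 8.84 and 12.0 in CL1-0 and 14.0 and 13.4 in CL1-5, all close to the floor. Its log2 ratio between the control arrays was 0.67, and ran from 0.11 to 1.46 over the settings that could read it, with 1.46 without scaling. The arrays of CL1-5 lay above those of CL1-0 by 1.12-fold at the nearest. With a common median they fell between those of CL1-0. BMP2, which binds the same receptors, was under the floor in both probe sets, between 3.56 and 5.09 over the 4 arrays. A dim probe set does not show that BMP2 was absent.

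BMPR2, the type II receptor for BMP ligands, had 6 probe sets that did not move together between the lines. The brightest, 225144_at, read 110, 101, 86.3 and 113, so the lines overlapped, with a log2 ratio of -0.35 between the control arrays. Next came 231873_at at 84.5, 95.1, 53.7 and 58.6, dimmer in CL1-5 with a log2 ratio of -0.66. Probe set 210214_s_at went the other way, from 7.58 and 6.26 in CL1-0 to 48.8 and 43.6 in CL1-5, a log2 ratio of 2.69. Of the 6 probe sets, 209920_at was brighter too at 0.56, and 1556075_at and 238516_at were dimmer at -0.96 and -0.60. The files do not say which BMPR2 transcripts each probe set reads, and the gene's ratio turned to 0.53 without scaling and to 0.11 with the mean of its probe sets.

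**Figure D2:**
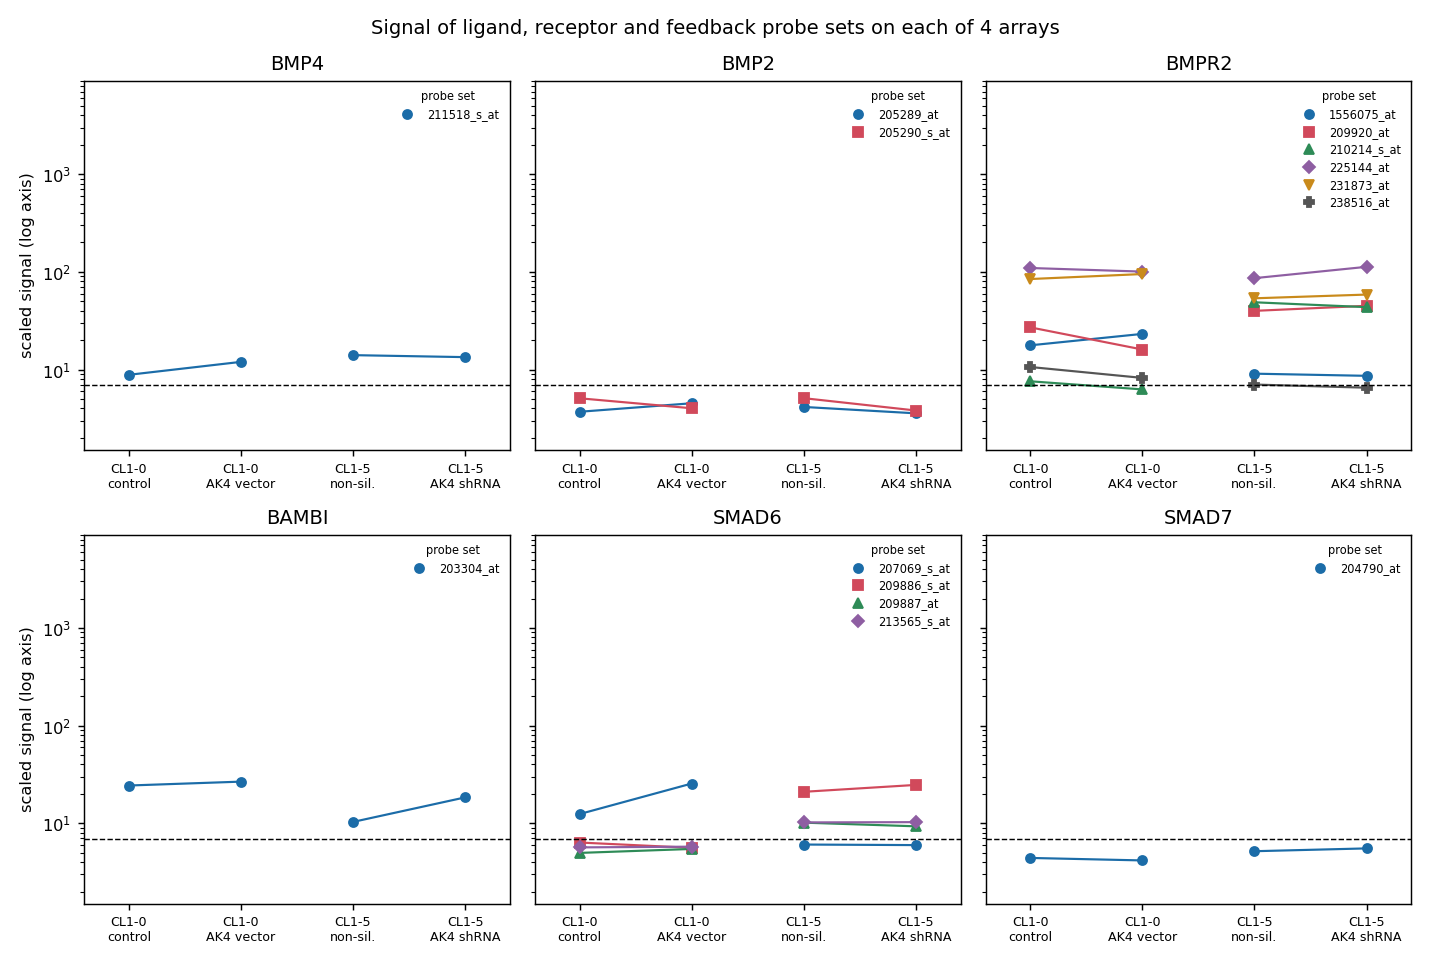
Scaled signal (vertical log axis) of each probe set of the ligands BMP4 and BMP2, the receptor BMPR2, the pseudoreceptor BAMBI and the inhibitory SMAD6 and SMAD7 on the 4 arrays, with the floor of 6.93 dashed and lines joining the arrays of a cell line. BMPR2 and SMAD6 have probe sets that cross between the lines, and BMP2 and SMAD7 stay under the floor.

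BAMBI resembles a type I receptor without a kinase and sits in the membrane as a decoy. It read 24.4 and 26.7 in CL1-0 and 10.3 and 18.4 in CL1-5. After scaling, both CL1-5 arrays were below both CL1-0 arrays, by 1.32-fold at the nearest. Without scaling this order did not hold, and CL1-5 with AK4 shRNA was the brightest array. The control arrays gave a log2 ratio of -1.24, which was -0.37 without scaling and -0.54 with a floor at the 60th percentile.

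SMAD6, an inhibitory SMAD that acts mainly on BMP receptors, was read by 4 dim probe sets that disagreed. The brightest, 209886_s_at, was under the floor in CL1-0, at 6.35 and 5.60, and read 21.0 and 24.7 in CL1-5, at least 3.03-fold higher. Probe sets 209887_at and 213565_s_at shared that order, with 10.1 and 9.31 and with 10.2 and 10.3 in CL1-5 and all CL1-0 signals under the floor. The fourth, 207069_s_at, had the opposite order, at 12.4 and 25.5 in CL1-0 and under the floor in CL1-5, at 6.05 and 5.98. The gene's ratio of 1.60 rests on which probe set is taken as brightest: after quantile normalisation and with a common median 207069_s_at became the brightest, and the log2 ratio reversed to -1.12 and -1.05. It was 0.33 with a floor at the 60th percentile, and 0.47 when its probe sets were averaged. SMAD7, which inhibits receptors of both the BMP and TGF-beta branches, was under the floor, between 4.16 and 5.53.

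The comparison within CL1-0 asked what differs when AK4 is overexpressed, as far as the label holds. No member gene was 2-fold higher or lower on the array labelled AK4 vector, where of 14681 readable genes 3.22% passed 2-fold upward and 1.16% downward. ID1 was the highest member, at 165% of its control signal, a log2 ratio of 0.73, and ID3 the lowest at 71.6%, a ratio of -0.48. The members with 2 readings above the floor otherwise lay between, with ID2 at 0.14, ID4 at 0.24, BMP4 at 0.44, BMPR2 at -0.12 and BAMBI at 0.13. Over the 7 measured genes the median was 0.14, against 0.05 for all genes.

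Single probe sets reached further. SMAD6 probe set 207069_s_at read 12.4 with control vector and 25.5 with AK4 vector, a log2 ratio of 1.04 and the only member reading past 2-fold in this comparison, while the other 3 SMAD6 probe sets were under the floor on both arrays. BMPR2 gave ratios from -0.75 for 209920_at to 0.39 for 1556075_at. The spread between probe sets of the same gene, pooled over the array, was 0.41 on the log2 scale in this comparison. Transcript differences enter this spread, so it does not stand for replicates. By brightest probe set, the ratios of ID1 and ID3 exceeded this spread in size and those of ID2, ID4, BMPR2 and BAMBI did not. ID4 probe set 209293_x_at exceeded it at 0.49, with signals of 16.9 and 23.6, as did BMPR2 probe set 209920_at. BMP4 lay close to the spread, at 0.44, and under it with the other scalings, down to 0.33 without scaling.

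In CL1-5 the comparison asked what differs when AK4 is silenced. Again no member gene passed 2-fold in either direction, where 0.0914% of 15321 measured genes were higher and 0.0131% lower with AK4 shRNA. BAMBI had the largest ratio, from 10.3 to 18.4, which is 178% of the non-silencing signal and a log2 ratio of 0.83. It fell short of 2-fold at low signal, and was 0.14 with the floor at the 60th percentile. BMPR2 followed, with 86.3 and 113 for 225144_at, a ratio of 0.39, but its 6 probe sets ran from -0.17 to 0.39 and their mean was 0.07.

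No ID gene passed 2-fold with AK4 shRNA. ID1 was at 82.2% of the non-silencing signal, a log2 ratio of -0.28, ID2 at 87.3% and a ratio of -0.20, and ID3 at 93.0% and a ratio of -0.10. The second ID2 probe set was at 0.09 next to the floor, and ID4 probe set 209293_x_at was at -0.18. BMP4 was at -0.07 and the brightest SMAD6 probe set at 0.23, or -0.12 once _x_at and _s_at probe sets were dropped. The spread between probe sets of a gene was 0.22 here, and by brightest probe set only ID1, BMPR2, BAMBI and SMAD6 exceeded it. SMAD6 did so narrowly, and its other measured probe sets were inside it, at 0.01 for 213565_s_at and -0.12 for 209887_at. Over the 7 measured genes the median log2 ratio was -0.07, against -0.00146 over all genes. It was 0.39 once _x_at and _s_at probe sets were dropped.

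**Figure D3:**
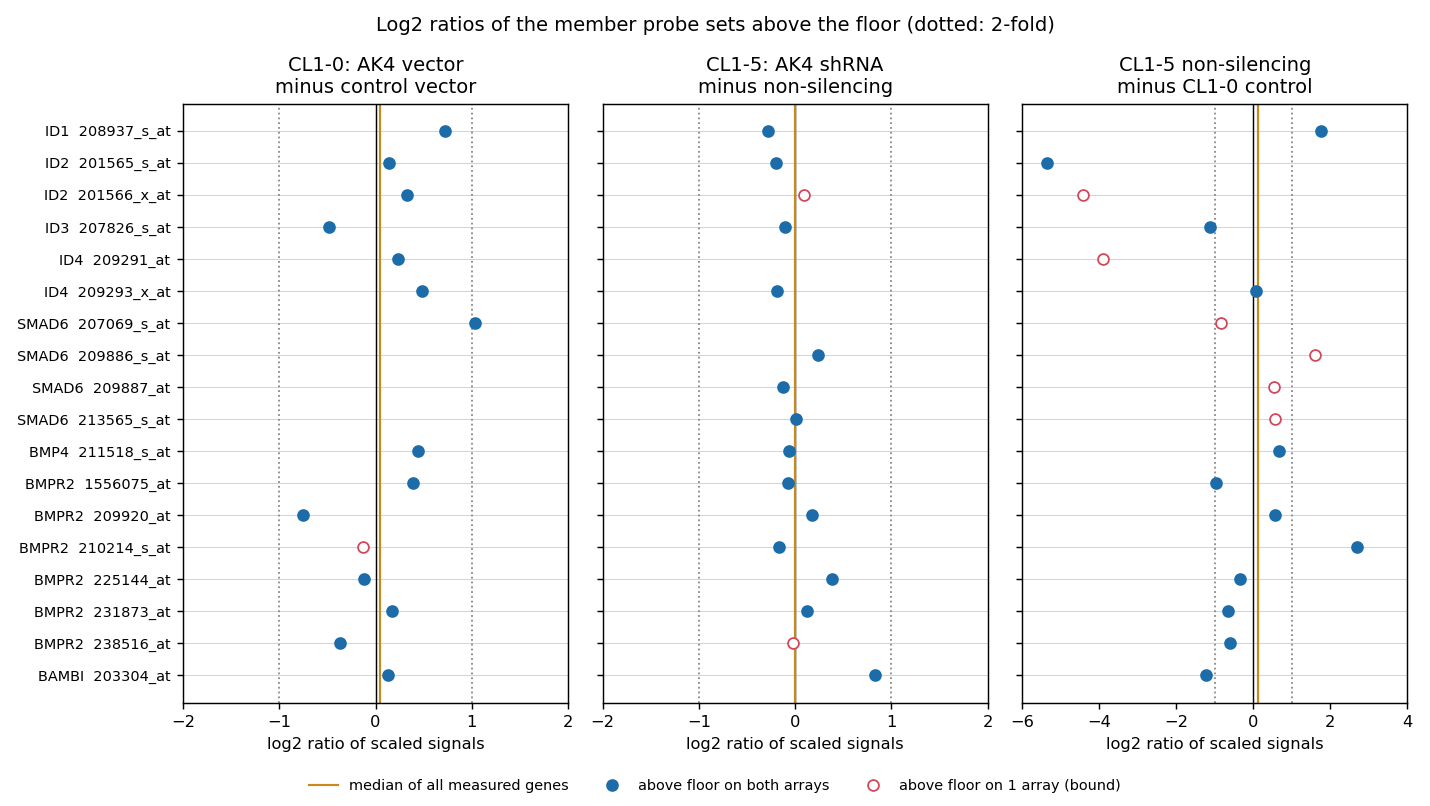
Log2 ratio (horizontal axis) of the 18 member probe sets above the floor on at least 1 array, in 3 comparisons, with filled points above the floor on both arrays, open points on 1 array, dotted lines at 2-fold and a coloured line at the median of all genes. Readings within a line stay near 2-fold or inside it, with SMAD6 207069_s_at at 1.04 the farthest, whereas ID2 reaches -5.37 between the lines (the third panel has a wider axis).

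Set side by side, ID1 was brighter on the array labelled AK4 vector and dimmer with AK4 shRNA, at 0.73 and -0.28. ID2 had the same pair of signs in its brightest probe set, at 0.14 and -0.20, and so had BMP4, at 0.44 and -0.07. BMPR2 had the opposite signs, at -0.12 and 0.39, ID3 was lower in both, at -0.48 and -0.10, and BAMBI was higher in both, at 0.13 and 0.83. By brightest probe set, among members read in both lines, the difference of the ratios was largest in size for ID1, at 1.01. For BAMBI it was -0.70, or 0.00 once the floor was raised to the 60th percentile. SMAD6 had no such value, since its brightest probe set lay under the floor on both CL1-0 arrays. Its probe set 207069_s_at gave 1.04, slightly more than ID1, with both CL1-5 arrays under the floor and counted as unchanged. These differences were not tested, and in CL1-0 they rest on the label.

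**Figure D4:**
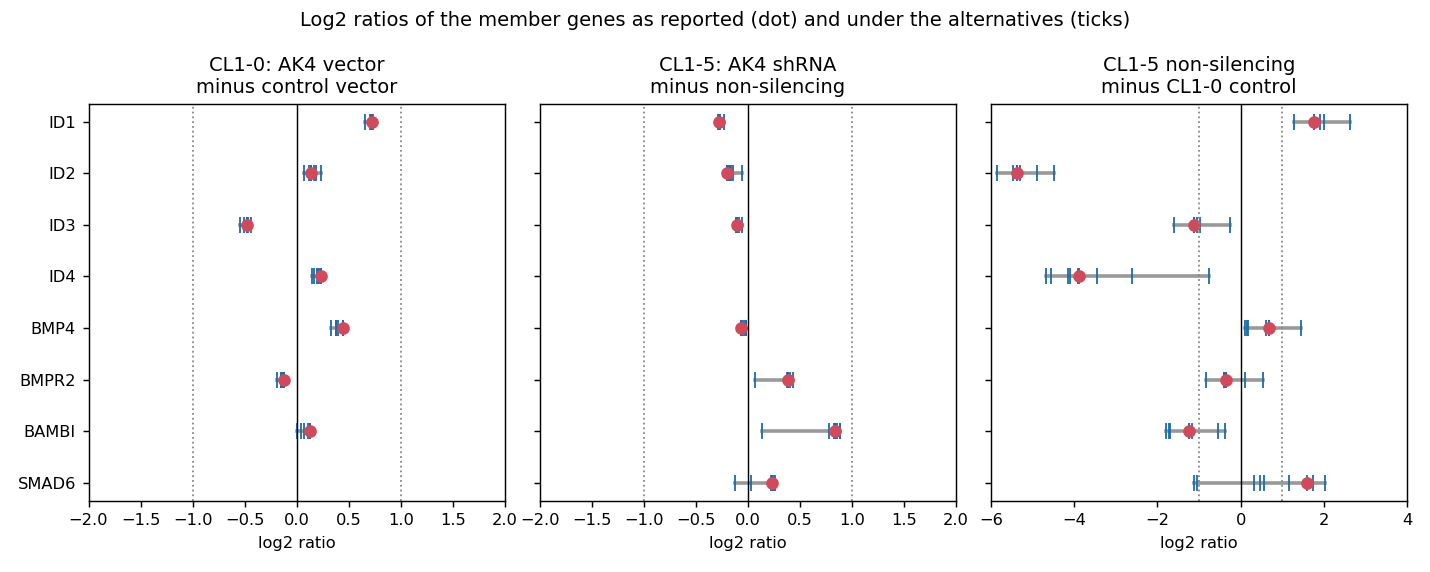
Log2 ratio (horizontal axis) of the 8 measurable member genes as reported (dots) and under the alternative settings (ticks, joined by a bar), for 3 comparisons, with dotted lines at 2-fold. The ID1 and ID2 bars between the lines stay outside 2-fold on opposite sides, and the SMAD6 bar spans zero from -1.12 to 2.03.

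The rest of the pathway was described through 9 lists with 79 genes, of which 75 had a probe set with a single symbol. Between the control arrays 15 of 66 readable genes passed 2-fold upward in CL1-5 and 10 downward. Their median log2 ratio was 0.23, and ran from -0.20 to 0.93 over the settings. The shares over all genes were those given above, 17.1% and 14.2%. The 4 largest ratios in size were those of CCN2, TGFBI, SKIL and DLX2. Within the lines, 2 of 61 readable genes passed 2-fold upward and 3 downward with AK4 vector, where all genes gave 3.22% and 1.16%. With AK4 shRNA 0 of 65 passed in either direction, where all genes gave 0.0914% and 0.0131%.

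Of the 6 signal-transducing SMADs, 1 was at least 2-fold higher in CL1-5 and 1 at least 2-fold lower. Over all genes the shares were 17.1% and 14.2%. SMAD3, which carries TGF-beta and activin signals, read 12.3 and 19.5 in CL1-0 and 182 and 216 in CL1-5, a log2 ratio of 3.88, and its 4 probe sets were all at least 2-fold higher. SMAD2, its partner, had its brightest probe set at 432, 393, 117 and 123, a ratio of -1.89. All 5 measured SMAD2 probe sets were lower, but only that probe set passed 2-fold, and the mean of all gave -0.73. The brightest probe sets of the BMP transducers SMAD1, SMAD5 and SMAD9 were within 2-fold between the lines, at 0.38, 0.42 and -0.14. Their other measured probe sets were all brighter in CL1-5, with SMAD1 at 1.34, SMAD5 between 0.55 and 2.21 and SMAD9 at 0.94. In CL1-0 SMAD9 read 52.3 with control and 123 with AK4 vector, a ratio of 1.23, or 0.62 with the mean of its probe sets. In that mean its other probe set, under the floor on both arrays, counted as unchanged.

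Among receptors TGFBR2, the type II receptor for TGF-beta, stood highest in CL1-5. It read 32.1 and 13.3 in CL1-0 and 379 and 355 in CL1-5, a log2 ratio of 3.56 with both probe sets past 2-fold. Endoglin (ENG), a co-receptor for BMP9 and TGF-beta, read 12.0, 16.4, 79.6 and 92.2, a ratio of 2.73. ACVR2B, a type II receptor for activins and some BMPs, was lower at -1.88 in its brightest probe set, at 206, 202, 55.9 and 69.9, but at -0.36 with the mean of its probe sets. Within CL1-0 TGFBR2 was lower on the array labelled AK4 vector at -1.27, or -0.63 with the mean of its probe sets and -0.94 with a floor at the 60th percentile. In that mean its other probe set, under the floor on both CL1-0 arrays, counted as unchanged. In CL1-5 the largest receptor ratios with AK4 shRNA were those of ACVR2B (0.32, or -0.01 with the mean) and ACVR1 (0.31).

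Ligands outside the set were mostly dim. GDF2, which encodes BMP9, read 8.18 and 7.64 in CL1-0 and 30.5 and 38.9 in CL1-5, a log2 ratio of 1.90, or 0.87 with the floor at the 60th percentile. BMP8A and BMP7 were at 1.29 and 1.10, and averaging the probe sets of each gave 0.54 and 0.49, with a BMP7 probe set at -1.24. Of the TGF-beta and activin ligands, TGFB3 was at 1.62, INHBA at 1.53, TGFB2 at 1.26 and INHA at 1.25, and all but TGFB2 were under the floor on the CL1-0 control array, so those ratios are bounds. With the floor at the 60th percentile they were 0.35, 0.26 and 0.17 for TGFB3, INHBA and TGFB2, and INHA was 0.97 after loess. The other measured TGFB2 probe set went the opposite way at -0.35, with CL1-5 under the floor. TGFB1 read 210 with control and 97.7 with AK4 vector in CL1-0, a ratio of -1.10, but its other probe set was at 0.24. In CL1-0 BMP8A (0.91) and BMP7 (-0.49) led the BMP-type ligands, and in CL1-5 GDF2 (0.35), GDF7 (-0.28), INHBA (0.60, or -0.11 without _x_at or _s_at probe sets) and INHA (0.32) led theirs.

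Secreted antagonists bind BMP ligands outside the cell. Noggin (NOG) read 7.73 and 7.10 in CL1-0 and 59.5 and 41.3 in CL1-5, a log2 ratio of 2.94 between the control arrays. Chordin (CHRD) was lower in CL1-5 at -1.17, from 36.8 to 16.4, and -0.30 without scaling, and its relative CHRDL2 was higher at 1.24, with CL1-0 under the floor. NOG and CHRD were also the lowest of the list with AK4 shRNA, at -0.53 and -0.48, and neither passed 2-fold. CHRD was at -0.24 there with the mean of its probe sets, in which its other probe set, under the floor on both arrays, counted as unchanged. In CL1-0 the largest ratios were those of TWSG1 (0.69, or 0.30 with the mean) and NBL1 (-0.45).

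Intracellular regulators of SMADs were led by SKIL, a corepressor that binds SMADs. SKIL read 413 and 384 in CL1-0 and 18.9 and 29.5 in CL1-5, a log2 ratio of -4.45. All 3 measured SKIL probe sets were lower, and 2 passed 2-fold. The mean over its probe sets, -1.22, takes in others under the floor on both arrays, which count as unchanged. TGIF1, another corepressor, was at -1.29, though 1 of its 3 measured probe sets was at 1.86 and their mean at -0.33. In CL1-0 the corepressor SKI was higher with AK4 vector at 1.07, from 212 to 446, or 0.55 averaged over its 3 probe sets, which shared the sign. With AK4 shRNA the brightest probe sets of the 7 genes ran from 0.07 to 0.64 for SKIL, which was 0.16 averaged over its probe sets, and none passed 2-fold. Over all genes 7610 of 15321 were above 0. Other probe sets went the other way, down to -0.42 for PPM1A and -0.12 for TGIF2.

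Target genes did not follow a single direction. DLX2, a homeobox gene, read 230, 118, 14.7 and 15.6, a log2 ratio of -3.96 between the control arrays, with its other dim probe set at 0.56. HEY2 was at -1.16, or -0.29 without scaling and -0.61 without _x_at or _s_at probe sets, and MSX1 at 1.24, the latter in both of its probe sets and 0.75 with a common median. Among TGF-beta targets CCN2 was the brightest on its own scale in CL1-0, at 5733 and 4109 against 149 and 132 in CL1-5, a ratio of -5.27. TGFBI had the opposite order at 5.26, 8.12, 257 and 217, a ratio of 5.22 against the floor. KLF11 was at -1.20, or -0.17 with the mean of its 2 probe sets. KLF10, the TGF-beta-inducible factor, read 1161 and 500.3 in CL1-0 and 581 and 855 in CL1-5, with ratios of -1.21 with AK4 vector and 0.56 with AK4 shRNA. In CL1-0 DLX2 (-0.96) and MSX1 (0.67, or 0.18 without _x_at or _s_at probe sets) led the BMP targets. In CL1-5 MSX2 (-0.16, or 0.08 with the mean of its probe sets) and MSX1 (0.15) led them and COL1A1 (-0.48, or 0.04 with the mean) stood second to KLF10.

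**Figure D5:**
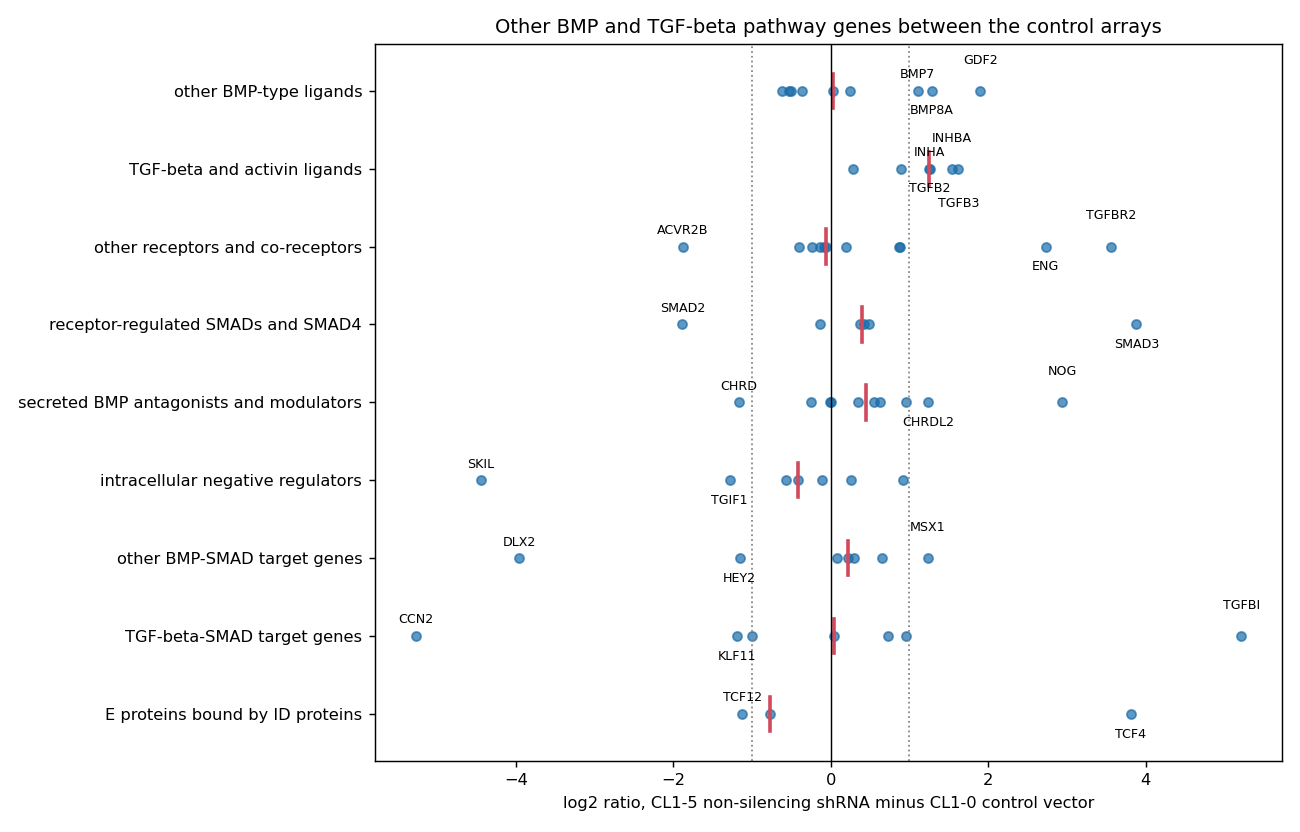
Log2 ratio (horizontal axis) between the control arrays for each measured gene of the 9 pathway lists, 1 point per gene from its brightest probe set, with names for genes past 2-fold, a red bar at each list's median and dotted lines at 2-fold. SMAD3 (3.88), TGFBR2 (3.56), TGFBI (5.22) and TCF4 (3.82) lie far to the right and CCN2 (-5.27), SKIL (-4.45) and DLX2 (-3.96) far to the left.

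Of the 3 E proteins, which ID proteins bind, 1 was at least 2-fold higher in CL1-5 and 1 at least 2-fold lower. All genes gave 17.1% and 14.2% here. TCF4 was under the floor in CL1-0 at 5.93 and 4.85 and read 97.5 and 114 in CL1-5, a log2 ratio of 3.82, and all 7 measured probe sets were at least 2-fold higher. TCF12 was lower at -1.12, from 367 to 168, and at -0.05 with the mean of its probe sets. TCF3, the gene of E12 and E47, was within 2-fold at -0.78 in its brightest probe set. Its measured probe sets disagreed between the lines, from -1.32 for 209153_s_at to 1.57 for 216647_at. With AK4 shRNA TCF4 was at 0.23 and TCF3 at -0.22. In CL1-0 TCF12 was at -0.17, or 0.11 with the mean of its probe sets, and TCF3 at 0.08, but the 13 TCF3 probe sets measured there ran from -1.79 to 0.61. Between the control arrays, CL1-5 thus had brighter ID1 and TCF4 and dimmer ID2 and ID3 than CL1-0.

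Genes whose level over the 4 arrays was most like that of ID1 were sought among 12800 others above the floor on all arrays. The measure was the root mean square difference of log2 levels centred over the 4 arrays. The 5 nearest were SKA1 (0.048), PPP2R5D (0.049), TBX19 (0.051), SORL1 (0.053) and RRP7A (0.055). The 4 points are few, and the list is a description only.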

How the data were processed

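RNA of 4 cultures was labelled with biotin and hybridised to Affymetrix arrays, 1 array per culture, per the labels' protocols. The authors deposited linear intensities without detection calls. MAS5 is among the tools named in the submitters' processing notes. How it was used, in which version and with which target, background correction or normalisation is not given in the sources used here.

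From these, each array was scaled to a common trimmed mean with 2% of 54613 non-control probe sets removed at each end, values under the 40th percentile (6.93) were set to it, and log2 was taken. A gene was measured where 1 of 2 arrays lay above this floor and was read from its brightest probe set with a single symbol. Of 54675 probe sets 41097 had 1 symbol, 1801 several and 11777 none, and 99.9% of the symbols were matched to RefSeq by gene identifier. With 1 array per group no test was run, and so few arrays limit the precision. Ratios past 2-fold were counted. The steps were tested on simulated data. Named pathway genes were those past 2-fold in each list and comparison, up to 4 by size, or the 2 largest. Scaling, floor and probe set choice were varied. Where probe sets were averaged, those under the floor on both arrays counted as unchanged, which draws the mean toward no change. The member genes, lists and rules were chosen with earlier results of these data known. Python 3.11.15, numpy 2.4.6, pandas 2.3.3 and statsmodels 0.14.6 were used. COL1A1 was in a target list and the fibroblast markers.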

Additional observations from a re-analysis of the deposited data

How the results depend on the processing

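Limits come first from the design, with 1 array per group, and from signal, since BMP2 and SMAD7 were never above the floor and SMAD6, BMP4 and BAMBI were near it. Between the lines, the members at least 2-fold higher, 2 as reported, numbered 1 after quantile normalisation, with a common median, with a floor at the 60th percentile and when probe sets were averaged, 0 once _x_at and _s_at probe sets were dropped and 3 without scaling. The members at least 2-fold lower, 4 as reported, numbered 2 without scaling and 2 without such probe sets, and 5 after quantile normalisation or with a common median. By the stricter rule over all 4 arrays, added after seeing the data, the higher member count of 1 was 3 without scaling and 0 after quantile normalisation, with a common median, with a floor at the 60th percentile, when probe sets were averaged and without _x_at or _s_at probe sets. The lower count of 2 was 4 with a common median and 1 with the mean or without such probe sets. SMAD6 reversed from 1.60 to -1.12 after quantile normalisation and to -1.05 with a common median, where another of its probe sets became the brightest, and TGFB1 reversed in CL1-0 from -1.10 to 0.24 without _x_at or _s_at probe sets, which leaves its other probe set. In CL1-5 the member median moved from -0.07 to 0.39 without those probe sets, where fewer members are left, and 1 pathway gene then passed 2-fold higher against 0. In CL1-0 the pathway genes at least 2-fold higher, 2 as reported, were 0 when probe sets were averaged, and the 3 lower ones were 5 with a common median and 1 with the mean. Between the lines the 15 higher pathway genes were 33 without scaling and 9 with a common median or with the floor at the 60th percentile, and the 10 lower ones were 5 without scaling, 3 when probe sets were averaged and 15 with a common median. Other than by these constructions, the cause was not tested. No paired analysis was possible because each group held 1 array. No replicate could be left out for the same reason, and loess, which is fitted per pair of arrays, was not run for the rule over 4 arrays.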

Other observations

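On the CL1-0 arrays 13 TCF3 probe sets were measured, and 202648_at read 91.2 with control and 26.4 with AK4 vector, a log2 ratio of -1.79, while 209153_s_at read 194 and 296, a ratio of 0.61. TGIF1 probe set 1566901_at read 9.03 with non-silencing and 22.3 with AK4 shRNA in CL1-5, a ratio of 1.31, whereas the brightest probe set of that gene was at 0.14. These readings were chosen after their values were seen.

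The deposited columns shared identical values between the arrays of a line, for 4502 probe sets in CL1-0 and 3287 in CL1-5, and none across the lines.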
